A study of Sus scrofa with 6 samples.

Results

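The 43 genes described here encode the machinery that loads, docks and fuses synaptic vesicles in the nerve terminal. They comprise SNARE proteins, synaptotagmins, synapsins, SV2 and other vesicle proteins, RAB3 GTPases, priming factors and active zone scaffolds. The genes were chosen by name, with earlier results of these data known. All 43 were among the 17201 genes listed in the count files. All 43 also passed the filter on low counts, which kept 14373 genes. RNA was sequenced from the prefrontal cortex of 6 pigs (Sus scrofa) aged 3 months, 1 library per animal. The VPA group was 3 pigs (391, 392 and 393) whose exposure to valproic acid (VPA) was in early gestation, at a labelled dose of 75 mg/kg. The control group was 3 pigs (401, 402 and 408) labelled as given no treatment, so that a vehicle effect cannot be told apart from that of VPA. VPA is an anticonvulsant that also inhibits histone deacetylases, and the series presents the exposed piglets as a pig model of autism. The sources used here do not give breed, litter or sex, and no genetic change is named in either group. As the tissue was taken at 3 months, the comparison reads the cortex long after the exposure.

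A synaptic vesicle is filled with transmitter, tethered at the active zone by scaffold proteins, and primed when its SNARE protein VAMP begins to pair with syntaxin and SNAP25 on the plasma membrane. Calcium binding to synaptotagmin then triggers fusion within a fraction of a millisecond, and NSF with its SNAP adaptors takes the spent SNARE complexes apart. Synapsins hold a reserve pool of vesicles, RAB3 and RIM link vesicles to release sites, and UNC13 and CAPS proteins carry out priming. In the cortex many, but not all, of these genes are transcribed mainly in neurons, with paralogues of some families used to different degrees by excitatory and inhibitory cells.

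Library totals ran from 16285517 to 17989032 counts, so that 1 CPM, the unit of level used below (counts divided by the library total and multiplied by 1000000), stood for 16.3 to 18.0 reads. The release genes took 1.79% to 1.84% of all counts in the VPA libraries and 1.91% to 1.97% in the control libraries. The least expressed of them in CPM, SV2C, still had 209 to 400 reads per library. One library stood apart from the others. In VPA 393 the summed level of 14 markers of striatal projection neurons, cells of a region beneath the cortex, was 898 CPM. That sum was 414 and 427 CPM in the other VPA libraries and 351 to 386 CPM in controls. The cortical transcription factor gene TBR1 was present in both groups, at 135 ± 10.2 CPM in VPA and 150.0 ± 4.40 CPM in controls (log2 fold change -0.16 ± 0.062 SE, adjusted p = 0.23). Counts of the Y-linked gene EIF1AY were found in 2 VPA and 2 control libraries and were 0 and 2 in VPA 392 and control 401.

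Most genes of the release machinery had slightly lower mean levels in VPA cortex, and for 1 gene the difference passed the test across all genes. SV2B, which encodes a glycoprotein of the synaptic vesicle membrane, fell by 21.5% in VPA cortex. Of the 43 genes, 36 had a negative log2 fold change and 7 a positive one, with a median of -0.11. Fold changes ran from -0.53 for RAB3B to 0.27 for UNC13C, and all but SV2B missed the adjusted threshold of 0.05.

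Those counts were set against all genes tested. As the list was chosen with earlier results of these data known, its shared direction is not independent support. SV2B was 1 of 43 genes called lower by edgeR's quasi-likelihood test (Benjamini-Hochberg adjustment), where 0.0835% of all genes were called lower. At an unadjusted p under 0.05, 18 of the 43 were lower and 0 higher, where 7.47% and 8.69% of all genes were. In 19 of the 43 every VPA library lay below every control library, and in 0 every VPA library lay above, against 9.07% and 12.1% of all genes. Of all genes 49.5% had a negative fold change, with a median of 0.0018. Among the 8800 genes at least as abundant as SV2C, with a mean of 16.0 CPM or more, 53.9% were negative, with a median of -0.011. Without VPA 393, the library with the high striatal markers, 36 of the 43 were negative with a median of -0.10. None of the 43 passed in edgeR, where 0% of all genes were called lower. At an unadjusted p under 0.05, in either direction, were 18 of the 43 and 2288 of the 14485 genes tested in that run. In RNA from whole tissue, fewer cells of a type and less RNA per cell cannot be told apart.

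**Figure D1:**
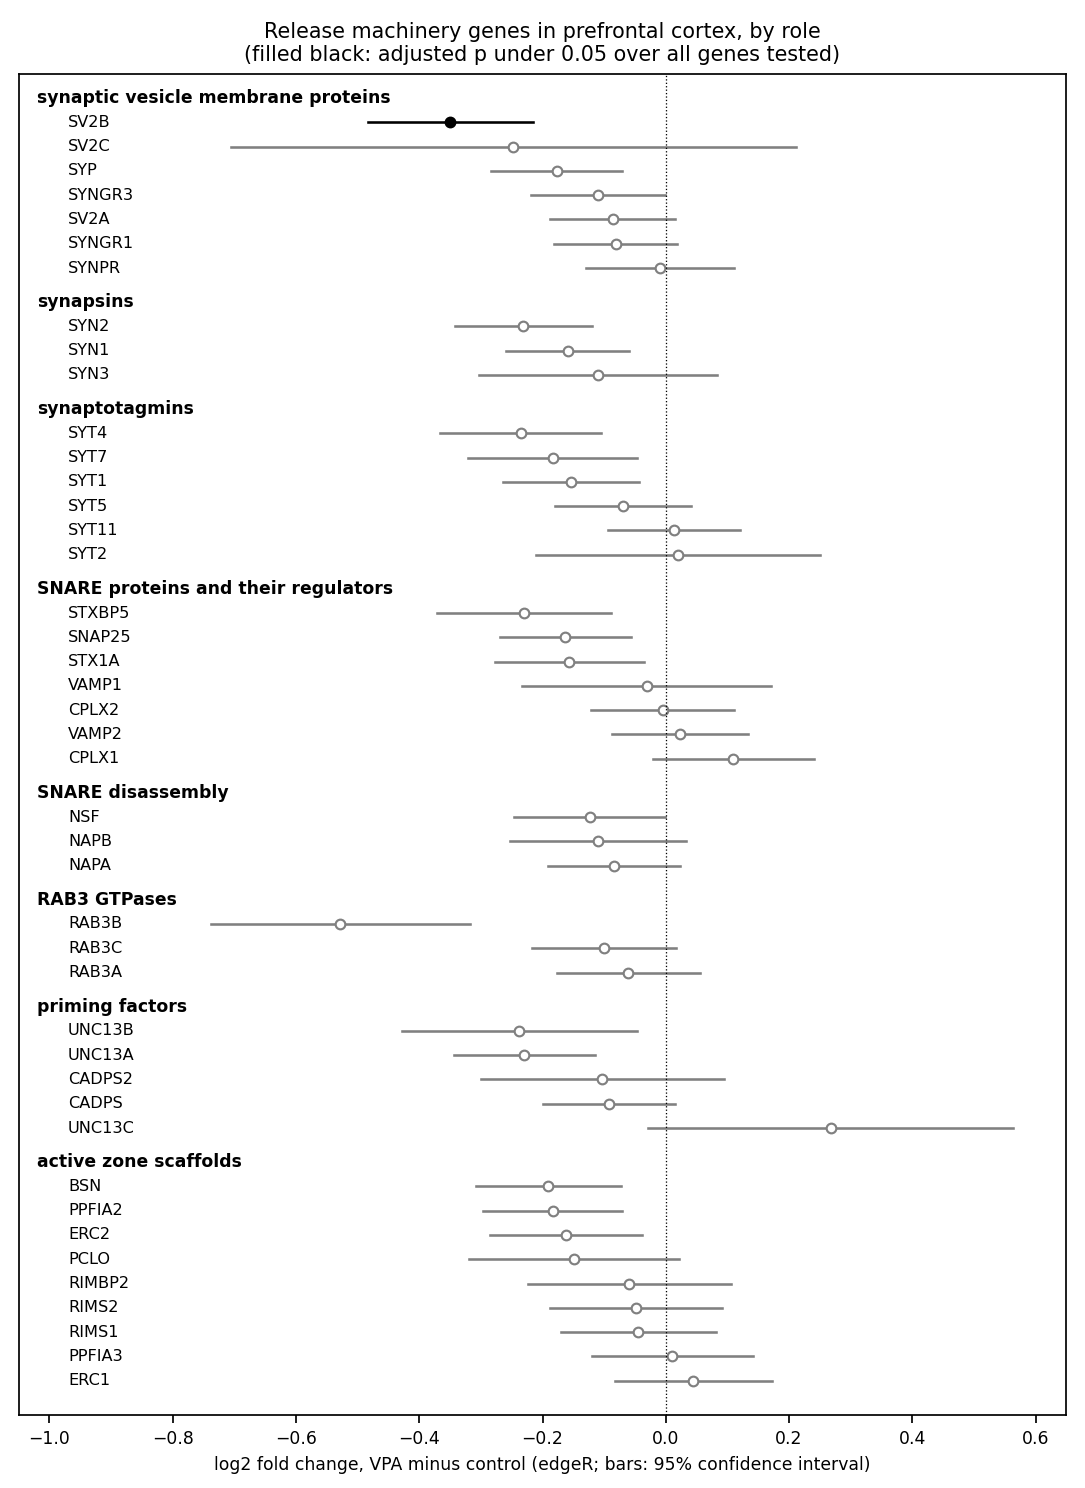
Log2 fold change of each of the 43 release machinery genes between VPA and control cortex on the x axis, with genes grouped by role down the page. Points are edgeR estimates and bars their 95% confidence intervals (3 libraries per group); SV2B, the filled point at -0.35, is the gene past the adjusted threshold, and 36 of 43 points lie left of 0.

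The vesicle membrane proteins all had negative fold changes. SV2B had 690.2, 633 and 725 CPM in VPA libraries 391, 392 and 393, against 822, 862 and 901 CPM in control libraries 401, 402 and 408. The groups did not overlap, and even the highest VPA library, 393, lay under the lowest control. The log2 fold change of SV2B was -0.35 ± 0.060 (SE, adjusted p = 0.048), with means of 683 ± 46.2 CPM in VPA and 862 ± 39.9 CPM in controls (SD, n = 3 each). The adjusted p lay close to the threshold, and the call was lost when VPA 391 (adjusted p = 0.13), VPA 392 (0.16), VPA 393 (0.064), control 402 (0.12) or control 408 (0.16) was left out. Its log2 fold change stayed between -0.39 and -0.30 over those runs and the one without control 401.

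The paralogues of SV2B had smaller fold changes. SV2A, the most widely expressed SV2 protein and the binding site of the antiepileptic drug levetiracetam, had 604, 578 and 585 CPM in the VPA libraries, against 614, 624 and 622 CPM in the control libraries. Its groups did not overlap, but the log2 fold change was only -0.086 ± 0.046 (SE, adjusted p = 0.39). SV2C, which in rodents is concentrated in the basal ganglia, had 12.8, 13.0 and 18.4 CPM in the VPA libraries, against 16.9, 12.4 and 22.8 CPM in the control libraries. Those values were spread widely within each group, and the interval of its log2 fold change, -0.71 to 0.21, includes 0. SYP encodes synaptophysin, the most abundant vesicle protein by mass, and had 1172, 1179.5 and 1141 CPM in the VPA libraries, against 1266, 1340.4 and 1309 CPM in the control libraries. All VPA libraries lay below the controls, with a log2 fold change of -0.18 ± 0.048 (SE, adjusted p = 0.12). SYNGR3, a synaptogyrin gene, had 125.9, 132.1 and 127.7 CPM in the VPA libraries, against 143.4, 132.5 and 136.8 CPM in the control libraries, at -0.11 ± 0.049 on the log2 scale (SE, adjusted p = 0.30). Its relative SYNGR1 stood at -0.081, again without overlap, while SYNPR, the gene of the synaptophysin relative synaptoporin, stood at -0.0096 with an interval of -0.13 to 0.11. The sign for SYNPR turned when libraries were scaled by their totals alone.

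The synapsins, phosphoproteins that tether the reserve pool of vesicles, were led by SYN2. SYN2 had 206, 220.0 and 226 CPM in the VPA libraries, against 244, 253 and 262 CPM in the control libraries. The VPA libraries lay below all controls, at a log2 fold change of -0.23 ± 0.050 (SE, adjusted p = 0.069). SYN1, the synapsin with the highest level per length here, had 650.1, 639.9 and 638 CPM in the VPA libraries, against 714, 696 and 725 CPM in the control libraries. It also showed no overlap, with a log2 fold change of -0.16 ± 0.045 (SE, adjusted p = 0.13). SYN3, which in rodents is expressed mostly early in neuronal development, had 42.5, 41.6 and 50.6 CPM in the VPA libraries, against 50.6, 44.8 and 48.6 CPM in the control libraries, and its groups overlapped.

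Among the synaptotagmins the calcium sensor of fast release was the most abundant. SYT1, that sensor in forebrain neurons, had 1639.5, 1539 and 1664 CPM in the VPA libraries, against 1744, 1789 and 1807 CPM in the control libraries. Its log2 fold change was -0.15 ± 0.050 (SE, adjusted p = 0.17), with no overlap. SYT4, an isoform found on dense-core and other secretory vesicles, had 148, 136 and 144 CPM in the VPA libraries, against 162, 159 and 178 CPM in the control libraries. This was the largest difference of the group, -0.24 ± 0.059 (SE, adjusted p = 0.099). SYT7, a slow sensor linked to asynchronous release and facilitation, had 158, 166 and 163 CPM in the VPA libraries, against 181, 168 and 199 CPM in the control libraries, without overlap at -0.18 on the log2 scale (adjusted p = 0.18). The remaining members overlapped between groups. SYT5 stood at -0.070, SYT11, which lacks calcium binding, at 0.013 with an interval of -0.094 to 0.12, and SYT2 at 0.020 with an interval of -0.21 to 0.25. SYT2 is the fast sensor of parvalbumin interneurons in mouse cortex.

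The core SNARE genes lay on both sides of 0. SNAP25, the plasma membrane SNARE and the most abundant of the 43 per length, had 2529, 2543 and 2483 CPM in the VPA libraries, against 2713, 2860.5 and 2810.3 CPM in the control libraries. The 3 VPA libraries were close to each other and below all controls, at -0.16 ± 0.048 on the log2 scale (SE, adjusted p = 0.14). STX1A, syntaxin 1A, had 266, 254 and 239.6 CPM in the VPA libraries, against 274, 275 and 290.1 CPM in the control libraries, also without overlap (log2 fold change -0.16 ± 0.055 SE, adjusted p = 0.19). VAMP2, the vesicle SNARE that completes the complex in most forebrain synapses, had 1098, 1093 and 1029.5 CPM in the VPA libraries, against 1037, 1068 and 1036 CPM in the control libraries. Its groups overlapped, with a log2 fold change of 0.023 and an interval of -0.086 to 0.13, so that a decrease of the size measured for SNAP25 lies outside it. VAMP1, the other vesicle SNARE, stood at -0.031 with an interval of -0.23 to 0.17.

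Regulators of SNARE assembly likewise had fold changes of either sign. STXBP5 encodes tomosyn, a soluble SNARE protein that limits priming, and had 117, 102 and 113 CPM in the VPA libraries, against 131, 121 and 133 CPM in the control libraries. No VPA library reached the controls, and the log2 fold change was -0.23 ± 0.064 (SE, adjusted p = 0.12). CPLX1, a complexin that clamps and then promotes fusion, had 273, 264 and 252 CPM in the VPA libraries, against 244, 256 and 225 CPM in the control libraries. Its log2 fold change was positive, 0.11 ± 0.059 (SE, adjusted p = 0.39), and 1 control, 402, lay inside the VPA range. CPLX2, the paralogue typical of excitatory forebrain neurons in rodents, stood at -0.0048 with an interval of -0.12 to 0.11, and its sign turned with scaling by library totals alone.

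The machinery that takes SNARE complexes apart had small negative fold changes with overlapping groups. The ATPase gene NSF had 898, 849 and 883 CPM in the VPA libraries, against 888, 987 and 965 CPM in the control libraries, where VPA 391 lay above control 401 (log2 fold change -0.12 ± 0.055 SE, adjusted p = 0.30). NAPA and NAPB, which encode the adaptors alpha-SNAP and beta-SNAP, stood at -0.084 and -0.11. NAPA had 197, 196 and 208 CPM in the VPA libraries, against 204, 209 and 219 CPM in the control libraries. NAPB, the brain-specific adaptor, had 612, 543 and 562 CPM in the VPA libraries, against 571, 627 and 640.1 CPM in the control libraries.

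RAB3B showed the largest difference of the 43 genes. RAB3 proteins are GTPases on the vesicle that bind RIM at the active zone, and RAB3A is the main form in most brain regions. RAB3B had 72.8, 89.9 and 99.8 CPM in VPA libraries 391, 392 and 393, against 119, 123 and 133 CPM in control libraries 401, 402 and 408. The groups did not overlap, and VPA 391 was the lowest library. Its log2 fold change was -0.53 ± 0.095 (SE), a mean of 87.5 ± 13.7 CPM in VPA and 125 ± 6.89 CPM in controls (SD, n = 3 each), and its adjusted p of 0.051 missed the threshold. Leaving out VPA 391 gave a log2 fold change of -0.42. RAB3A had 633, 683 and 626 CPM in the VPA libraries, against 662, 691 and 654 CPM in the control libraries, with overlap and a log2 fold change of -0.061. RAB3C had 531, 495 and 501 CPM in the VPA libraries, against 569.9, 523 and 529 CPM in the control libraries, at -0.10 with an interval of -0.22 to 0.017.

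No priming factor passed the adjusted threshold, and the UNC13 paralogues had fold changes of either sign. UNC13A encodes Munc13-1, the main priming factor of cortical excitatory synapses, and had 410.0, 378 and 403 CPM in the VPA libraries, against 460.0, 445 and 478 CPM in the control libraries. The VPA libraries all lay below the controls, at -0.23 ± 0.052 on the log2 scale (SE, adjusted p = 0.077). UNC13B, the gene of Munc13-2, had 48.6, 50.2 and 57.9 CPM in the VPA libraries, against 56.9, 59.3 and 66.9 CPM in the control libraries, with a similar log2 fold change of -0.24 ± 0.086 (SE, adjusted p = 0.21) and overlap through VPA 393. UNC13C, the gene of Munc13-3, which in rodents is best known from the cerebellum, had 82.1, 65.6 and 60.9 CPM in the VPA libraries, against 66.6, 58.3 and 47.0 CPM in the control libraries. It had the largest positive fold change of the 43, 0.27 ± 0.13 (SE, adjusted p = 0.36), though control 401 lay above 2 of the VPA libraries. CADPS and CADPS2, which encode the CAPS proteins of dense-core vesicle priming, stood at -0.092 without overlap and -0.10 with overlap.

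Active zone scaffolds had small fold changes, that of the giant scaffold Bassoon the most negative. BSN, its gene, had 459.9, 424 and 453 CPM in the VPA libraries, against 485, 502 and 525 CPM in the control libraries. The groups did not overlap, with a log2 fold change of -0.19 ± 0.053 (SE, adjusted p = 0.12). PPFIA2, a liprin-alpha gene, had 185, 169.7 and 172 CPM in the VPA libraries, against 197, 193 and 202 CPM in the control libraries (-0.18 ± 0.051 SE, adjusted p = 0.12). ERC2, which encodes the ELKS relative CAST, had 91.8, 87.4 and 93.3 CPM in the VPA libraries, against 98.4, 97.6 and 106 CPM in the control libraries (-0.16 ± 0.056 SE, adjusted p = 0.19). Both were lower in each VPA library than in any control. PCLO, the gene of the related giant Piccolo, stood at -0.15 with overlap. The release-site organisers RIMS1, RIMS2 and RIMBP2 stood at -0.044, -0.048 and -0.059, each with an interval that includes 0. PPFIA3 and ERC1 stood at 0.011 and 0.045.

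**Figure D2:**
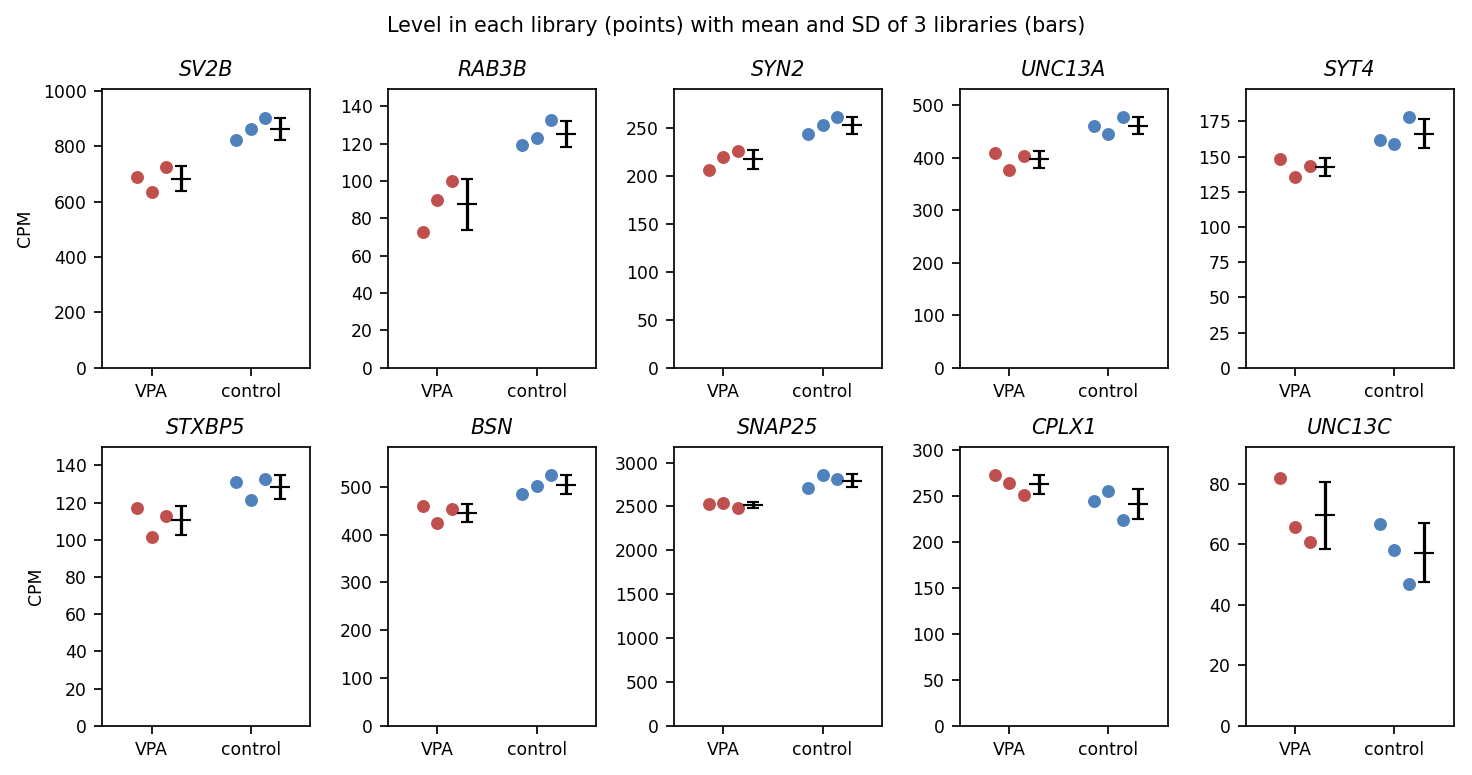
Level in CPM (y axis, from 0) of 10 release machinery genes in each of 3 VPA and 3 control libraries, with the group mean and SD beside the points. In SV2B, RAB3B, SYN2, UNC13A, SYT4, STXBP5, BSN and SNAP25 every VPA point lies below every control point, while CPLX1 and UNC13C have higher means in VPA with overlapping points.

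The number of release genes called varied with the tool. DESeq2 tested the same libraries with its defaults and called 182 (1.31%) of the 13863 genes it gave an adjusted p lower. Of the 43 it called 9 lower and none higher. These were SV2B (adjusted p = 1.0e-05), RAB3B (2.1e-05), UNC13A (0.0050), SYN2 (0.0088), SYP (0.015), SNAP25 (0.022), SYT4 (0.031), BSN (0.032) and SYN1 (0.034). Without VPA 393 it called SV2B, RAB3B, UNC13A, SYN2 and SYT1, all lower. In that run 8810 genes, SV2C not among them, had an adjusted p, and 200 (2.27%) of those were called lower. The fold changes of the 2 tools differed little, with SV2B at -0.35 in DESeq2. Limma-voom called SV2B, where it called 0.0626% of all genes lower. In edgeR without a filter on low counts and in edgeR with robust dispersion SV2B and RAB3B were called, where 0.285% and 0.383% of all genes were called lower.

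Libraries differed in how often they held the lowest or the highest value. VPA 392 was the lowest of the 6 libraries for 18 of the 43 genes, and control 408 was the highest for 21. Relative to the control mean of each gene, the median deviation over the 43 was -0.075 in VPA 391, -0.14 in VPA 392 and -0.096 in VPA 393 on the log2 CPM scale. It was -0.015, -0.0099 and 0.028 in controls 401, 402 and 408, which sit near 0 by construction. Over all genes tested the same medians lay between -0.0027 and 0.027. The median fold change of the 43 was -0.081 without VPA 392, -0.10 without control 408 and -0.15 without VPA 391. In the 4 libraries with EIF1AY counts 35 of the 43 were negative, with a median of -0.11.

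**Figure D3:**
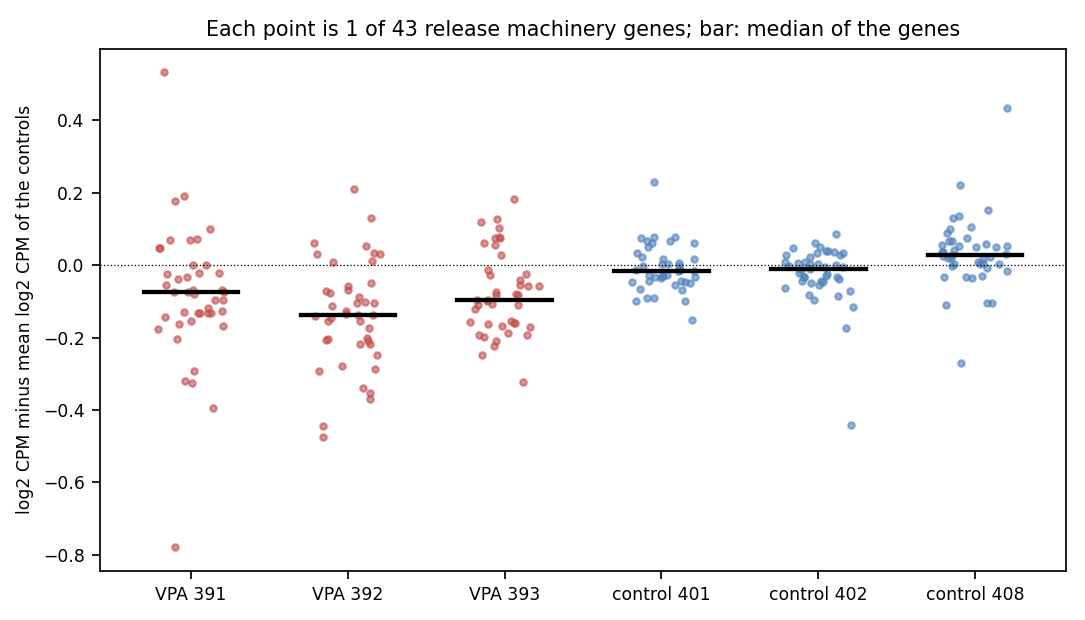
Deviation of each of the 43 release machinery genes from its mean over the control libraries (y axis, log2 CPM), by library on the x axis, with the median of the genes as a bar. The VPA medians lie between -0.14 and -0.075, below those of the controls, while single genes scatter to both sides in every library.

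Levels per length spanned a wide range over the 43 genes. On the FPKM scale, which divides by gene length, SNAP25 had the highest mean over the 6 libraries at 1057 FPKM. VAMP2 followed at 486, SYP at 456, RAB3A at 442 and SYT1 at 367 FPKM. The lowest were SV2C at 4.22, UNC13C at 4.30, UNC13B at 4.35 and ERC2 at 4.65 FPKM. SV2B, at 58.4 FPKM, lay between its paralogues SV2A at 135 and SV2C at 4.22.

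The share that 1 paralogue held in its family was compared as a measure that does not depend on how libraries are scaled. Shares were taken of summed FPKM in 10 families, each tested with a two-sided exact permutation test over the 6 libraries. With 3 against 3 libraries that test cannot go below 0.1, so none could pass 0.05. Of SV2 transcripts, SV2B held 27.4%, 26.6% and 28.8% in the VPA libraries and 30.5%, 31.4% and 32.0% in the control libraries. The groups did not overlap, with means of 27.6% ± 1.13 in VPA and 31.3% ± 0.757 in controls (SD, n = 3 each, exact p = 0.1, 0.25 after Benjamini-Hochberg adjustment over the 10 families). Of ERC transcripts, ERC2 held 34.1% ± 0.676 in VPA and 37.4% ± 1.55 in controls (SD). Of complexin transcripts, CPLX1 held 32.6% ± 0.0948 in VPA and 30.9% ± 1.38 in controls. Of UNC13 transcripts, UNC13C held 9.70% ± 1.30 in VPA and 7.10% ± 1.30 in controls. In these families too every VPA library lay on one side of every control, with the same exact p of 0.1. The share of CPLX1 was nearly constant in VPA, and control 408 was far below the other controls at 29.3%. Without control 408 the difference in the CPLX1 share was 0.940 percentage points, where it was 1.74 with all libraries. In the other families the share of the 1 paralogue taken overlapped between the groups. Shares of the remaining paralogues were not tested. Among these was RAB3B, whose fold change was the most negative of the release genes. Among synapsins SYN2 held 28.4% ± 1.08 in VPA and 29.5% ± 0.728 in controls (exact p = 0.3). Of the SYT1 and SYT2 sum, SYT2 held 2.35% ± 0.142 in VPA and 2.09% ± 0.272 in controls (exact p = 0.3). Of VAMP transcripts, VAMP1 held 5.05% ± 0.550 in VPA and 5.25% ± 0.254 in controls (exact p = 0.6). The exact p was 0.8 for RAB3C among RAB3 genes, 0.7 for NAPB and 1.0 for CADPS2.

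**Figure D4:**
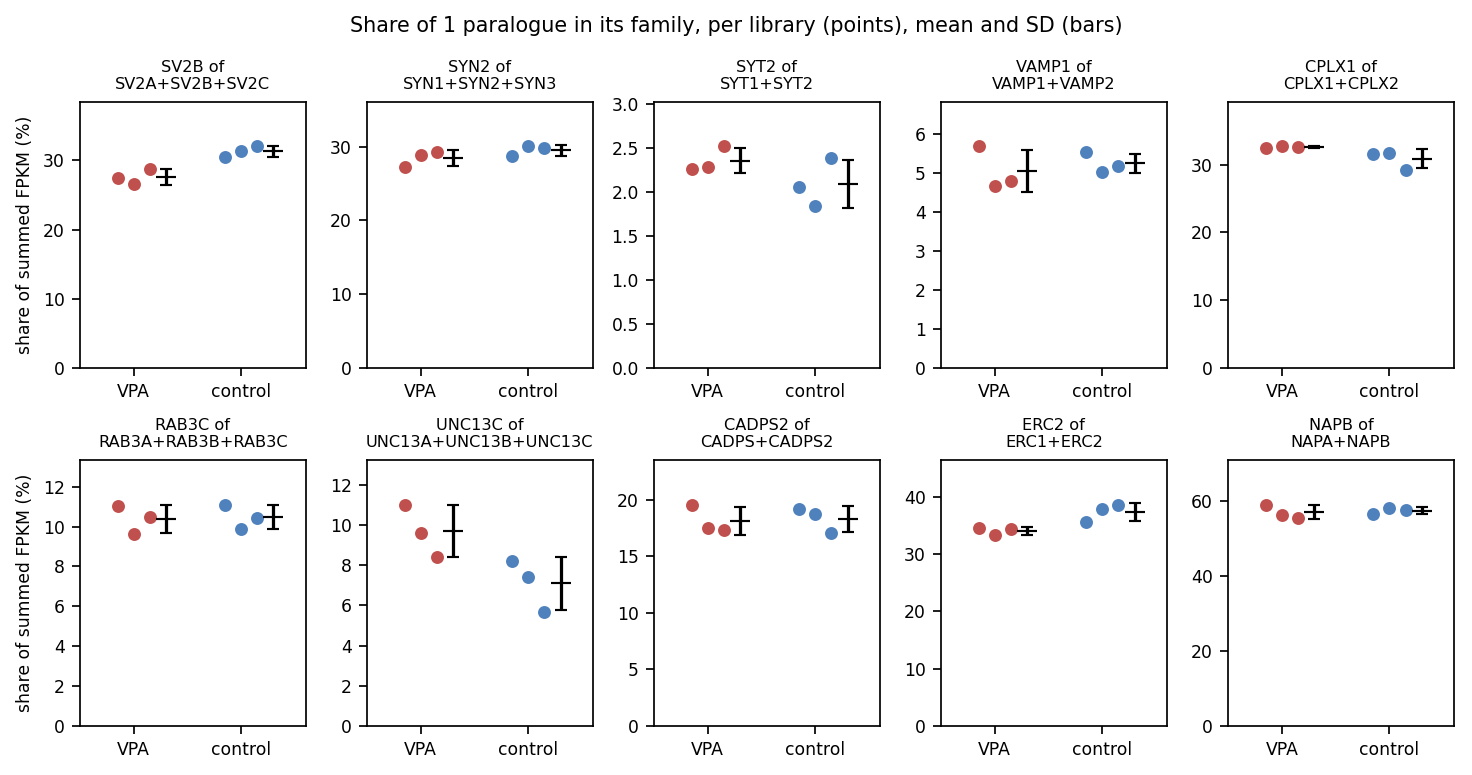
Share of the named paralogue in the summed FPKM of its family (y axis, percent, from 0) in each of 3 VPA and 3 control libraries, with the group mean and SD beside the points. SV2B and ERC2 hold lower shares in VPA and CPLX1 and UNC13C higher ones, without overlap, while the points of the paralogues named for the other 6 families overlap.

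Other genes of the release pathway, outside the 43, were counted in a list of 69. It held among others further syntaxins, synaptotagmins, SNARE partners, RIM and liprin relatives and vesicular transporters. Some of these transporters were also among the glutamatergic and GABAergic markers below, so the lists share genes. Of 68 tested, 46 had negative and 22 positive fold changes, with a median of -0.071. At an unadjusted p under 0.05, 20 were lower and 3 higher, where 7.47% and 8.69% of all genes were. None passed the adjusted threshold in edgeR. In 20 every VPA library lay below every control library and in 8 above, against 9.07% and 12.1% of all genes. DESeq2 called 4 of the list lower and 0 higher, where it called 1.31% and 1.83% of the genes given an adjusted p. STXBP5L, the gene of tomosyn-2 and the closest relative of STXBP5, averaged 121 ± 5.02 CPM in VPA and 147 ± 7.05 CPM in controls (log2 fold change -0.30 ± 0.054 SE, adjusted p = 0.052). DOC2A, a calcium sensor gene of spontaneous and asynchronous release, averaged 69.1 ± 6.78 CPM in VPA and 84.9 ± 3.46 CPM in controls (log2 fold change -0.31 ± 0.071 SE, adjusted p = 0.080).

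Markers of the cell types in the tissue were counted in the same way. The summed level of 13 pan-neuronal markers was 9360.3 to 10000.0 CPM in the VPA libraries and 10107 to 10214 CPM in controls, and 11 of them had negative fold changes (median -0.065). One of them was called, the surface glycoprotein gene THY1, at 1036 ± 56.9 CPM in VPA and 1271 ± 17.6 CPM in controls (log2 fold change -0.31 ± 0.053 SE, adjusted p = 0.048). Glutamatergic neuron markers summed to 5839 to 6018 CPM in VPA and 6137 to 6305 CPM in controls, with 10 of 15 negative (median -0.13). The lowest p there belonged to NEUROD6, a neuronal transcription factor (-0.34, log2 scale, adjusted p = 0.065), and to KCNV1, a modulatory potassium channel subunit (-0.29, adjusted p = 0.073). GABAergic interneuron markers lay the other way, at 1677 to 1750.5 CPM in VPA and 1548 to 1576 CPM in controls, with 14 of 17 positive (median 0.13). RELN, the gene of the secreted glycoprotein reelin, stood at 0.18 on the log2 scale (adjusted p = 0.22).

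Most glial markers had positive fold changes. Oligodendrocyte markers summed to 18621 to 20919.8 CPM in VPA and 14172 to 18903 CPM in controls, where the highest control, 401, lay above VPA 393. Of 18 tested, 17 had positive fold changes (median 0.34). The lowest p belonged to GPR37 (0.28, adjusted p = 0.060) and CLDN11 (0.51, adjusted p = 0.062). Medians were 0.22 for 12 precursor markers, 0.18 for 13 astrocyte markers, 0.086 for 12 microglia markers and 0.054 for 12 endothelial and mural markers. None of these markers passed the adjusted threshold in edgeR. At an unadjusted p under 0.05 13 oligodendrocyte, 8 precursor, 7 astrocyte, 2 microglia and 1 endothelial or mural markers were higher and none lower. Of all genes 8.69% were higher and 7.47% lower at that threshold. The 1 of 12 endothelial or mural markers was close to the share of higher genes. DESeq2, which called 1.83% of the genes given an adjusted p higher, called 10 oligodendrocyte, 3 precursor and 2 astrocyte markers higher. For the 13 tested striatal markers the median was 0.95, with none past the threshold and 10 higher at an unadjusted p under 0.05 in edgeR, where DESeq2 called 2 higher. The part of cell composition in the lower release gene values was not tested.

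**Figure D5:**
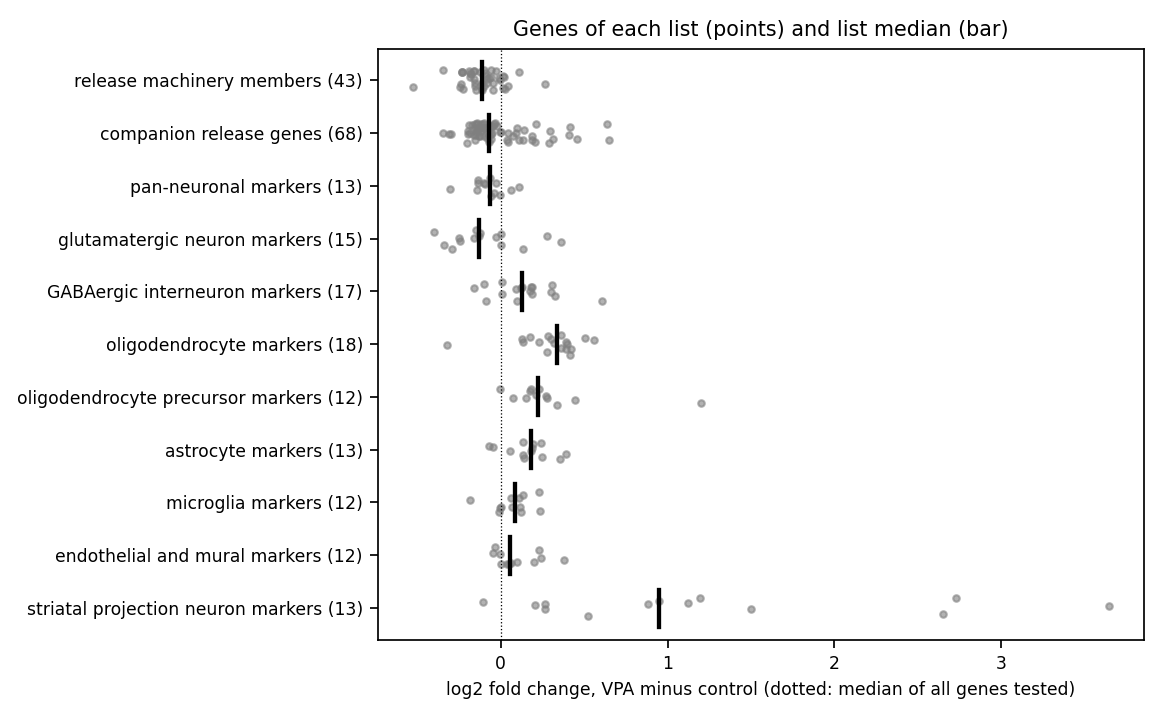
Log2 fold change (x axis) of the genes of each list between VPA and control cortex, with the list median as a bar and the number of genes tested in brackets. The release machinery, its companion genes, pan-neuronal and glutamatergic markers have medians from -0.13 to -0.065, and interneuron, glial and striatal lists have positive medians.

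The release genes were also expressed relative to the neuronal markers of the same library, a ratio chosen after the data were seen. Their summed CPM was 1.84, 1.82 and 1.93 times the pan-neuronal sum in VPA 391, 392 and 393. In controls 401, 402 and 408 it was 1.87, 1.94 and 1.93 times that sum, so that the groups overlapped. On this scale 9 of the 43 genes lay below all controls in every VPA library, against 2.72% of all genes, and 5 lay above, against 20.6%. The lower ones were SV2B, RAB3B, SYP, SYN1, SYT4, SNAP25, STX1A, UNC13A and PPFIA2, and the higher ones VAMP2, CPLX1, CPLX2, ERC1 and PPFIA3. SV2B stood at 6.90%, 6.45% and 7.74% of that sum in the VPA libraries, against 8.05%, 8.53% and 8.83% in the control libraries. RAB3B stood at 0.728%, 0.916% and 1.07% of that sum in the VPA libraries, against 1.17%, 1.22% and 1.30% in the control libraries. Neither overlapped between the groups.

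Set against the summed glutamatergic markers, the summed level of the release genes did not overlap between the groups, with lower ratios in VPA. The ratio of sums was 3.059, 2.968 and 3.096 in VPA 391, 392 and 393, against 3.114, 3.103 and 3.133 in controls 401, 402 and 408. The groups were apart by a small margin. Here 9 of the 43 were lower and 4 higher without overlap, against 2.96% and 21.4% of all genes. SV2B, RAB3B, SYP, SYN1, SYT4, SNAP25 and UNC13A were among the lower genes on both scales, and SYN2 and BSN on this one. VAMP2, CPLX1, CPLX2 and ERC1 were among the higher genes on both.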

How the data were processed

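Per the labels' protocols, TRIzol was used to extract total RNA and the VAHTS Universal V6 kit to build libraries. No label or file names the aligner, counting tool, strandedness, genome build or annotation (not given in the sources used here), so reads of overlapping or antisense genes cannot be separated. Per the file headers and names, the authors deposited for each library a table of raw counts and a table of FPKM. All 97071 nonzero FPKM values equalled count over total over a fixed gene length (relative tolerance 0.001). All 43 symbols matched the RefSeq table of Sscrofa11.1, used for names only. CPM uses file totals.

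The counts were tested with edgeR 4.0.16 in R 4.3.3: filterByExpr, TMM factors of 0.993 to 1.01, then glmQLFit and glmQLFTest, without covariates, and Benjamini-Hochberg adjustment over all genes tested (threshold 0.05). Standard errors came from the F statistic. The fits and the permutation test were tested on simulated data. The members, roles and lists were chosen with earlier results of these data known, among them a lower median of a related presynaptic list, so the shared direction is not independent support. Values in every library are given for called members and up to 3 per role with the lowest p; CPLX1, VAMP2, SV2A and SV2C were added after their values were seen. Of other lists, up to 3 called genes or the 2 with the lowest p are named (1 gene that this rule names is not reported here), and TBR1 and EIF1AY describe libraries. All pairs of libraries differed by more than sampling noise (chi-square per degree of freedom 5.74 to 12.8). The labels name separate animals but no litters, so p-values measure the spread between these animals. The alternatives were other scalings and filters, DESeq2 1.42.0, limma 3.58.1 (voom, or trend on log2 FPKM) and leaving out each library. The runs on the 4 libraries with EIF1AY counts and of DESeq2 without VPA 393 were chosen after seeing the data.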

Additional observations from a re-analysis of the deposited data

How the results depend on the processing

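Over 19 alternatives, 33 of the 43 genes kept the sign of their fold change in all, and 10 passed the threshold in at least 1. From 34 to 37 of the 43 were negative with any 1 library left out, and their median ran from -0.15 to -0.081. The number of all genes called, 52 in edgeR, was 141 without a filter on low counts, 168 with robust dispersion, 435 in DESeq2, 30 in limma-voom, 2 in limma on log2(FPKM + 1) and on log2(FPKM + 0.1), 1 in limma on log2(FPKM + 1) without the filter, and 0 to 66 with 1 library left out. It was 413 in DESeq2 without VPA 393 and 0 in the 4 libraries with EIF1AY counts. There edgeR had 1919 of 14409 genes at an unadjusted p under 0.05, against 2322 of 14373 with all libraries. Of the 43 genes, 2 were called without the filter and 2 with robust dispersion (SV2B and RAB3B), 9 in DESeq2, 5 in DESeq2 without VPA 393, 0 in each limma run on FPKM and in the 4 libraries, and 0 to 1 with 1 library left out. In the limma runs on FPKM 14 of the 43 had an unadjusted p under 0.05 in either direction, and in the 4 libraries 17. Of all genes in those limma runs, 2055 (pseudocount 1) and 2057 (0.1) of 13251 did with the filter. Without the filter 2354 of 17201 did. The cause of these differences was not tested. The difference in the CPLX1 share ran from 0.940 to 2.17 percentage points with 1 library left out.

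Signs turned for genes near 0. With library size only, SYNPR was at 0.0036 and CPLX2 at 0.0075. In limma on FPKM SYNPR was at 0.00094 (pseudocount 1, with and without the filter) and 0.00092 (0.1), and CPLX2 at 0.0067 and 0.0068. In the 4 libraries VAMP1 was at 0.038, VAMP2 at -0.0055 and RIMS1 at 0.0065. DESeq2 without VPA 393 gave -0.055 for SYT2, -0.010 for SYT11, 0.037 for VAMP1 and 0.028 for CPLX2. Leaving out 1 library gave -0.049 to 0.032 for CPLX2, -0.066 to 0.015 for SYNPR, -0.041 to 0.043 for PPFIA3, -0.14 to 0.022 for RIMBP2, -0.10 to 0.0080 for RIMS2, -0.015 to 0.035 for SYT11, -0.070 to 0.14 for SYT2, -0.16 to 0.041 for VAMP1 and -0.0059 to 0.058 for VAMP2. No paired analysis was possible because the groups share no replicate number. The exact permutation test used for paralogue shares cannot go below 0.1 with 3 libraries a group.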
